A study of Mus musculus with 13 samples.

Results

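The respiratory chain genes described here were chosen by gene symbol alone. They are all genes in the deposited normalised table whose symbols name subunits, isoforms or helpers of the 5 oxidative phosphorylation complexes (Nduf, Sdha to Sdhd, Uqcr, Cox4 to Cox8 and Atp5 symbols, and the mitochondrially encoded mt-Nd, mt-Co, mt-Cytb and mt-Atp symbols). The rule found 105 of 48709 genes, of which 98 are nuclear and 7 are encoded in mitochondrial DNA. Among the nuclear genes, 80 are subunits or their tissue isoforms, 11 are assembly or accessory factors and 7 are processed pseudogenes that share the naming. Enough reads for testing were present for 100 of the 105 genes (93 nuclear and 7 mitochondrial), and Cox6a2, Ndufb4c, Uqcrh-ps2, Atp5k-ps2 and Atp5l-ps2 fell below the filter on low counts.

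RNA came from the submandibular gland, a large salivary gland, of mice whose strain is given as CH3 and whose age is given as 1 year, harvested 300 days after treatment. The 13 libraries form 3 groups. PreIR-GFP (5 libraries) were irradiated glands that had been injected with AAV2-GFP, an adeno-associated virus vector carrying a fluorescent marker, 10 days before irradiation. PreIR-NTN (5 libraries) were irradiated glands injected at the same interval with Cere-120, the same type of vector carrying neurturin, a growth factor of parasympathetic nerves. NonIR (3 libraries) were not irradiated; whether they received a vector, the radiation dose and the sex of the mice were left unstated in the labels, so irradiation and vector cannot be told apart in a comparison with NonIR. The series description speaks of triplicates, which differs from these group sizes, and the sample labels were followed. Replicates are not tied to separate animals in the labels, so p-values measure the spread between libraries, which may be technical. In whole-gland RNA, fewer cells of a type and less RNA per cell cannot be told apart.

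The respiratory chain sits in the inner mitochondrial membrane. Complexes I (NADH dehydrogenase, Nduf and mt-Nd genes), II (succinate dehydrogenase, Sdh genes), III (cytochrome bc1, Uqcr genes and mt-Cytb) and IV (cytochrome c oxidase, Cox genes and mt-Co genes) pass electrons to oxygen, and complex V (ATP synthase, Atp5 and mt-Atp genes) uses the resulting proton gradient to make ATP. Despite their symbols, Ndufa4 was counted here as a subunit of complex IV and its paralogue Ndufa4l2 as a factor of complex IV. Complex II is encoded entirely by nuclear genes, whereas the other complexes mix subunits from both genomes, so 2 sets of transcripts made in different compartments must meet in one assembly. Ion-transporting duct cells of salivary glands are known for dense mitochondria, and acinar cells use ATP for secretion.

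Libraries held between 9724301 and 16771003 reads in genes, the fewest in PreIR-GFP 1 and the most in PreIR-GFP 4. The salivary identity of the tissue was plain: 9 acinar markers (among them Aqp5, Bhlha15 and Smgc) together held between 118300 and 375750 CPM (counts per library total after TMM scaling of the libraries, the usual CPM and the unit of all levels below). Single libraries stood apart in ways that touch these genes. PreIR-GFP 2 held 295.9 CPM of 11 skeletal muscle markers, against 2.8 to 5.8 CPM in the other 12 libraries, with Atp2a1, the calcium pump of fast muscle, at its highest level of 99.2 CPM. NonIR 1, PreIR-GFP 1, PreIR-GFP 5 and PreIR-NTN 2 were the lowest libraries in short transcripts outside the chain, and results are given with and without those 4 where they rest on them.

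The mitochondrial genes come first because their sequences limit what the counts can show. Mouse mitochondrial DNA encodes 13 proteins, all of them chain subunits, yet 6 of these were absent from the deposited normalised table, and the count table held almost no reads for them. Over all 13 libraries together, mt-Atp6 had 16 reads, mt-Co3 11, mt-Co2 2, mt-Atp8 2, and mt-Nd3 and mt-Nd4l 0, where a count of 0 allows up to 3 reads. The 7 genes that were present ranged from 4800 reads (mt-Nd6) to 91178 reads (mt-Nd1). On GRCm38, chromosome 1 carries a nuclear copy of this stretch of mitochondrial DNA between bases 24611535 and 24616197, annotated in GENCODE as a row of unprocessed pseudogenes on the minus strand.

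The copies are shown beside the mitochondrial genes they match, because 5 of the 6 genes with almost no reads are repeated there over nearly their whole length. The sixth, mt-Atp8, was not compared with chromosome 1, so whether it is repeated was not examined. In mitochondrial DNA it lies next to mt-Co2 and mt-Atp6, which are both among the repeated genes. Position 1 is the first base of the mitochondrial gene, sequences are printed 5′ to 3′ on the coding strand, and capitals mark bases that differ. The first bases of mt-Co2, mt-Atp6 and mt-Co3 and of their copies read as follows.
mt-Co2: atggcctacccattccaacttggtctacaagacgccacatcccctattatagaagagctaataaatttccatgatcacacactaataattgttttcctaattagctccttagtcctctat
Gm28661: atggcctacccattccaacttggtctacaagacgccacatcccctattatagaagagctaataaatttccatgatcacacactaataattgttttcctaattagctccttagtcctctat
mt-Atp6: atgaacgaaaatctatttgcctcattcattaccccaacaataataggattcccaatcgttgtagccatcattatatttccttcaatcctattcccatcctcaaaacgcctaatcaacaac
Gm10925: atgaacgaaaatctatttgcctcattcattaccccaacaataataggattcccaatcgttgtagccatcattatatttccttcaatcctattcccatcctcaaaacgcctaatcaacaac
mt-Co3: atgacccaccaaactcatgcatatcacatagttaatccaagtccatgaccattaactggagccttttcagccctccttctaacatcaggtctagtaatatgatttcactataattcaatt
Gm28437: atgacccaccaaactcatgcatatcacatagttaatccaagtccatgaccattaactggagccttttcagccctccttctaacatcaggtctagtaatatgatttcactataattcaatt

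Gm28661 matched mt-Co2 over 681 of 681 aligned bases, Gm10925 matched mt-Atp6 over 678 of 678, and Gm28437 matched mt-Co3 over 783 of 783. Gm10222 matched mt-Nd4l over 294 of 294 bases, and Gm28438 differed from mt-Nd3 by 1 base in 345 (T3C). These 5 copies held few reads themselves, from 4 (Gm28438 and Gm10222) to 123 (Gm28437) over all libraries. How the authors' counting treated reads that match more than 1 place was not stated in the labels or notes, so the near absence of these 6 genes cannot be read as low expression. The same stretch reaches 2 of the 7 genes that were counted. Gm28439 repeats 876 bases, or 63.57%, of mt-Nd4 without a difference, and Gm29216 repeats 492 bases, or 31.84%, of mt-Co1.

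The part where the Gm29216 repeat of mt-Co1 begins is shown from position 1054 to 1173 of mt-Co1.
mt-Co1: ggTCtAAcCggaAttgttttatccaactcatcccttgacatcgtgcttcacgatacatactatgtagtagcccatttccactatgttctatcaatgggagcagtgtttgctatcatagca
Gm29216: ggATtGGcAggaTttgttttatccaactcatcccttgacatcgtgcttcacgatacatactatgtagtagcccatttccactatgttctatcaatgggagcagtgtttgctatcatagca

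All 6 differences (T1056A, C1057T, A1059G, A1060G, C1062A and A1066T) lie at the start of the Gm29216 repeat, and a run of 479 identical bases follows. Counting every run of 50 bases in the annotated transcripts, 62.2% of those in mt-Nd4 and 51.1% of those in mt-Co1 also occur in another annotated gene. The 492 bases of Gm29216 cannot hold all 765 shared runs of mt-Co1. A further part of mt-Co1 is therefore repeated in another annotated gene, and that part was not aligned. For mt-Nd2 the share was 8.19% and for mt-Nd5 7.61%, and mt-Nd1, mt-Cytb and mt-Nd6 shared none. The counts of mt-Nd4 and mt-Co1 are therefore uncertain in scale. mt-Nd6 lies on the opposite strand to the other 6 genes, the kit does not mark strand, and reads from the 2 strands of mitochondrial RNA cannot be told apart at that gene.

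Levels of different genes are compared per kilobase of transcript. Short transcripts varied with the library, as described further on, and dividing by length does not correct for that. On this scale mt-Nd1 had the highest level of the 7 mitochondrial genes at a mean of 530 CPM per kilobase. It was followed by mt-Cytb at 327, mt-Co1 at 262, mt-Nd2 at 134, mt-Nd4 at 71.9, mt-Nd5 at 60.3 and mt-Nd6 at 51.7 CPM per kilobase. These levels use the full length of each gene, although 51.1% of the 50-base runs of mt-Co1 and 62.2% of those of mt-Nd4 are shared. The places of mt-Co1 and mt-Nd4, and with them the lead of mt-Nd1, are therefore uncertain. mt-Nd1 encodes a membrane subunit of complex I, mt-Cytb the cytochrome b of complex III and mt-Co1 the catalytic subunit of complex IV. Within complex I, the mitochondrial genes thus spanned a wide range, although mt-Nd4 is one of the genes with a repeated stretch.

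Nuclear genes covered a far wider range, from 0.616 to 613 CPM per kilobase, here given as means over all 13 libraries for genes that passed the filter on low counts. In complex I the highest level per kilobase belonged to Ndufb9, an accessory subunit of the membrane arm, at 613 CPM per kilobase, and the lowest belonged to Ndufaf6, an assembly factor and no subunit, at 1.93. In complex II Sdhb, the iron-sulphur subunit, stood at 507 and Sdhc, a membrane anchor, at 27.3 CPM per kilobase. In complex III the small subunit Uqcrq had the highest mean, 251, and Uqcrb the lowest, 60.1, but this order turned with the library. Uqcrq ranged from 43.2 CPM per kilobase in PreIR-GFP 1 to 553 in PreIR-NTN 5 and led in 7 of 13 libraries, and Uqcrb was lowest in 10 of 13. Cox4i1, the ubiquitous form of subunit 4, led complex IV at 604, and Atp5c1, the gamma subunit of the rotor stalk, led complex V at 430 CPM per kilobase. At the low end of complex V stood Atp5l, subunit g, at 8.27, and the lowest mean among the complex IV genes tested was that of Ndufa4l2, a paralogue of Ndufa4, at 0.616 CPM per kilobase. Ndufb9, Sdhb, Sdhc and Cox4i1 held their place at the end of their complex in all 13 libraries, Ndufaf6 in 12, Atp5c1 in 10, Atp5l in 9 and Ndufa4l2 in 4. The 11 factors had a median of 12.2 CPM per kilobase, against 86.1 for the 93 nuclear genes tested and 3.40 for all genes tested.

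Some nuclear members also have processed copies, which make their counts uncertain. Of the 50-base runs of Atp5g2, 38.3% occur in another gene, and the share was 25.4% for Uqcrb, 22.1% for Cox7c and 21.7% for Ndufs5. For Cox5a, a structural subunit of complex IV, it was 0.954%.

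Irradiated glands given the GFP vector were compared with non-irradiated glands to ask whether chain transcripts differed 300 days on. None of the 100 genes tested changed at an adjusted p of 0.05 (edgeR quasi-likelihood test with Benjamini-Hochberg adjustment over all 14727 genes), where 0.034% of all genes did. At an unadjusted p under 0.05, 2 of the 100 passed, against 8.78% of all genes, and both were higher in PreIR-GFP: mt-Co1 and Cox6b2. The same 2 were the only chain genes whose libraries did not overlap between the groups, against 5.14% of all genes.

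mt-Co1 stood at 295, 346 and 290 CPM in NonIR 1 to 3, at 437, 489, 545, 431 and 414 CPM in PreIR-GFP 1 to 5, and at 460, 318, 407, 441 and 391 CPM in PreIR-NTN 1 to 5. All 5 PreIR-GFP libraries lay above all 3 NonIR libraries, and PreIR-NTN 2 fell within the NonIR range. Group means were 310 ± 31.0 (SD, n = 3), 463 ± 53.7 (SD, n = 5) and 404 ± 54.7 CPM (SD, n = 5). The log2 difference of PreIR-GFP from NonIR was 0.58 (SE 0.14, unadjusted p = 0.000884, adjusted p = 0.232, edgeR), and that of PreIR-NTN from NonIR was 0.38 (SE 0.14, adjusted p = 0.533, edgeR). DESeq2 gave an adjusted p of 0.0466 for the first of these, the single call of a chain gene under any of 19 alternatives, and under the other 18 the adjusted p lay between 0.141 and 0.867. The difference itself stayed between 0.51 and 0.68 in all of them.

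The other 6 mitochondrial genes lay slightly below NonIR in PreIR-GFP and none passed the test. The sign held for mt-Cytb, mt-Nd1, mt-Nd4 and mt-Nd5 under all 19 alternatives, and turned for mt-Nd2 under 1 and for mt-Nd6 under 4 of them. mt-Cytb stood at 387, 473 and 422 CPM in NonIR, at 247, 318, 512, 369 and 259 CPM in PreIR-GFP, and at 417, 262, 379, 395 and 421 CPM in PreIR-NTN. The 3 groups overlapped, with the lowest values in PreIR-GFP 1, PreIR-GFP 5 and PreIR-NTN 2. Its log2 difference of PreIR-GFP from NonIR was -0.33 (SE 0.21, adjusted p = 0.703, edgeR). Against NonIR, the differences of mt-Nd1, mt-Nd2, mt-Nd4, mt-Nd5 and mt-Nd6 in PreIR-GFP lay between -0.26 and -0.07, with adjusted p-values from 0.775 to 0.973. mt-Nd4, the other gene with a long repeat on chromosome 1, had a difference of -0.17 (SE 0.20).

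A ratio within a library does not depend on how libraries are scaled. Reads in mt-Co1 per read in mt-Cytb were 0.763, 0.731 and 0.686 in NonIR, 1.77, 1.53, 1.07, 1.17 and 1.60 in PreIR-GFP, and 1.10, 1.22, 1.07, 1.12 and 0.931 in PreIR-NTN. Every irradiated library lay above every NonIR library in this ratio. Within groups it was high in the libraries low in short transcripts: NonIR 1 and PreIR-NTN 2 had the highest ratio of their group, and PreIR-GFP 1 and PreIR-GFP 5 the highest of theirs. Without those 4 libraries the ratio was 0.686 to 0.731 in NonIR, 1.07 to 1.53 in PreIR-GFP and 0.931 to 1.12 in PreIR-NTN, still without overlap between irradiated and NonIR libraries. As a share of the reads in the 7 mitochondrial genes, mt-Co1 took 18.7% ± 0.888 (SD, n = 3) in NonIR, 28.5% ± 2.14 (SD, n = 5) in PreIR-GFP and 24.1% ± 1.80 (SD, n = 5) in PreIR-NTN. These ratios were formed after the values of mt-Co1 had been seen and are given as a description, without a test. mt-Cytb had the most negative difference of PreIR-GFP from NonIR among the 7 mitochondrial genes, and the separation depended on this choice. Per read in mt-Nd1 the groups overlapped: PreIR-NTN 3 held 4999 mt-Co1 and 8446 mt-Nd1 reads, against 4312 and 6509 in NonIR 1. The share of mt-Co1 among the 7 genes stayed apart: 17.7% to 19.4% in NonIR, and from 21.3% upward in the irradiated libraries. A ratio shows unequal change and not which gene changed.

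**Figure D1:**
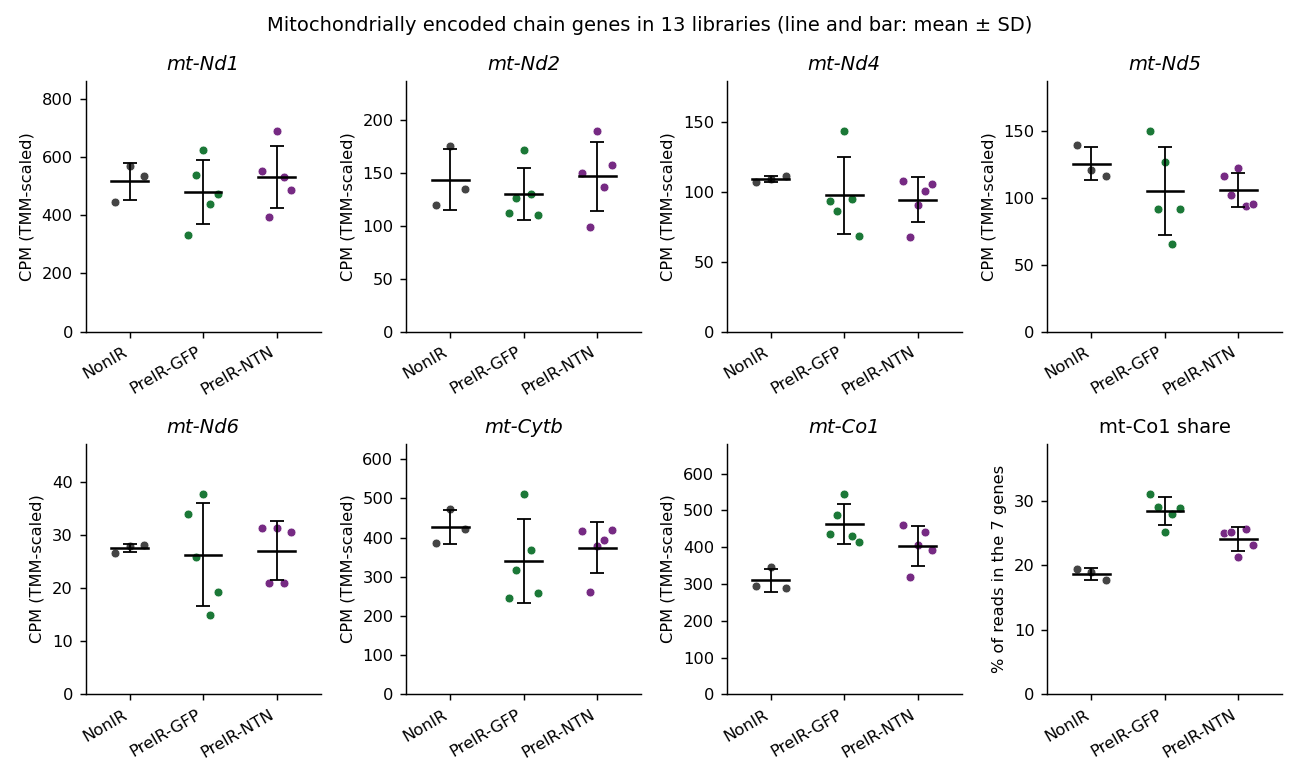
Level of each mitochondrially encoded chain gene in CPM (vertical axes start at 0), and in the last panel the share of mt-Co1 in the reads of the 7 genes, in percent. Each point is 1 library, and line and bar are the group mean ± SD (n = 3, 5 and 5). The mt-Co1 points of PreIR-GFP, 414 to 545 CPM, sit above those of NonIR, 290 to 346 CPM, while in the other 6 genes the groups overlap.

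Other values differed between the same groups. The 4 RNAs retained in the nucleus (Malat1, Neat1, Snhg11 and Meg3) summed to between 1066 and 1257 CPM in NonIR, between 1338 and 2181 in PreIR-GFP and between 1453 and 2264 in PreIR-NTN, without overlap between irradiated and NonIR libraries. The 5 macrophage markers summed to 63.3 to 73.0 CPM in NonIR, 72.2 to 156.7 in PreIR-GFP and 46.2 to 62.9 in PreIR-NTN. Their part in the mt-Co1 difference was not tested. Neither mitochondrial ribosomal RNA was higher in PreIR-GFP. mt-Rnr2, the large one, averaged 321 ± 13.8 CPM in NonIR, 305 ± 69.6 in PreIR-GFP and 325 ± 43.6 in PreIR-NTN. mt-Rnr1, the small one, averaged 47.8 ± 8.96, 27.4 ± 17.9 and 25.9 ± 14.2 CPM (adjusted p = 0.775 for PreIR-GFP against NonIR, edgeR).

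Cox6b2, an isoform of complex IV subunit 6b known from testis, was the other non-overlapping gene and was close to the limit of detection. It had 2, 7 and 6 reads in NonIR, 10, 23, 18, 12 and 12 reads in PreIR-GFP, and 13, 7, 12, 6 and 16 reads in PreIR-NTN. The log2 difference of PreIR-GFP from NonIR was 1.37 (SE 0.53, adjusted p = 0.480, edgeR). Its common counterpart Cox6b1 averaged 146 CPM over all libraries, against 0.801 CPM for Cox6b2.

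Among nuclear genes, 56 of 93 were higher and 37 lower in PreIR-GFP than in NonIR, with a median log2 difference of 0.14. Of all 14727 genes tested, 7763 were higher and 6964 lower, with a median of 0.02. The sign of the nuclear median turned in 5 of 19 alternatives. It was -0.15 without PreIR-GFP 3, -0.01 without PreIR-GFP 4, -0.09 with limma-voom and with limma on the deposited values, and 0.24 without the 4 libraries low in short transcripts. The 7 mitochondrial genes had a median of -0.14 and stayed negative under all 19 alternatives, between -0.26 and -0.06. After mt-Co1 and Cox6b2, the lowest unadjusted p-values belonged to Ndufs6b, a processed pseudogene (1.63, SE 0.87, adjusted p = 0.626, edgeR), Uqcrc1, a core subunit of complex III (-0.36, SE 0.20, adjusted p = 0.636, edgeR), and Atp5a1, the alpha subunit of ATP synthase (-0.24, SE 0.14, adjusted p = 0.673, edgeR). Ndufs6b had only 2 to 24 reads per library, and 25.4% of its 50-base runs occur in another gene.

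Neurturin against GFP vector in irradiated glands, the comparison in which irradiation is shared, gave no call either. None of the 100 genes passed, where 0.0204% of all genes did with edgeR, and none passed an unadjusted p under 0.05, where 6.08% of all genes did. No chain gene was called by DESeq2 or under any of the 21 alternatives, and none had groups without overlap, against 1.11% of all genes. Of the 93 nuclear genes, 68 were higher and 25 lower in PreIR-NTN, with a median of 0.10, and of the 7 mitochondrial genes 5 were higher and 2 lower, with a median of 0.04 that turned negative in 5 of 21 alternatives, to -0.07 with library totals, -0.05 without PreIR-GFP 4, -0.01 without PreIR-GFP 5, -0.02 without PreIR-NTN 1 and -0.02 without PreIR-NTN 3. Of all 14727 genes tested, 6969 were higher and 7758 lower, with a median of -0.01. The nuclear median was -0.11 without the 4 libraries low in short transcripts. It also turned to -0.03 without PreIR-GFP 1, -0.01 without PreIR-GFP 5, -0.01 without PreIR-NTN 1 and -0.07 without PreIR-NTN 5. The assembly factor Ndufaf6 had the lowest unadjusted p, with a log2 difference of 0.55 (SE 0.31, adjusted p = 0.863, edgeR). Cox4i2, the hypoxia-responsive form of subunit 4, followed at -0.79 (SE 0.46, adjusted p = 0.876, edgeR) with 2 to 13 reads per library.

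Between PreIR-NTN and NonIR, again none of the 100 passed, where 0.0204% of all genes did with edgeR, and 2 passed an unadjusted p under 0.05 (mt-Co1 and Ndufs6b), against 7.97%. Ndufs6b had 3, 2 and 4 reads in NonIR and 22, 4, 4, 14 and 15 reads in PreIR-NTN. No chain gene was called by DESeq2 or under any of the 19 alternatives, and none had groups without overlap, against 6.52% of all genes. Nuclear genes had a median of 0.23, with 55 higher and 38 lower, and that median stayed positive in all 19 alternatives, from 0.04 to 0.54. Of all 14727 genes tested, 7437 were higher and 7290 lower, with a median of 0.003. The mitochondrial median was -0.03 and turned positive in 4 of 19 alternatives, to 0.08 without PreIR-NTN 2, 0.04 without PreIR-NTN 4 and 0.03 without the 4 libraries low in short transcripts among them. Both comparisons with NonIR use the same 3 NonIR libraries, so they are not independent of each other.

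By complex, the 4 succinate dehydrogenase genes were lower than NonIR in both irradiated groups, with medians of -0.09 in PreIR-GFP and -0.19 in PreIR-NTN, and none passed the test. All 4 stayed lower in PreIR-NTN under 19 alternatives, whereas 3 of the 4 were higher in PreIR-GFP without the 4 libraries low in short transcripts and 2 of the 4 with library totals. Sdhd stood at 257, 204 and 220 CPM in NonIR, at 189, 232, 213, 222 and 209 CPM in PreIR-GFP, and at 181, 212, 202, 212 and 190 CPM in PreIR-NTN, so that the groups overlapped. In complex IV, 13 of 15 nuclear subunit genes, Ndufa4 among them, were higher than NonIR in each irradiated group, with medians of 0.52 and 0.61, and none passed the test. Without PreIR-GFP 3 the first of these counts was 4 of 15, while the second stayed between 12 and 14 in 19 alternatives. Complex I gave 22 of 36 and 24 of 36, complex III 5 of 8 in both, and complex V 8 of 16 and 9 of 16. Without PreIR-GFP 3 the first count was 6 of 36 in complex I, 1 of 8 in complex III and 1 of 16 in complex V. Cox5a was the one complex IV subunit gene lower than NonIR in both irradiated groups, at -0.51 (SE 0.65) and -0.14 (SE 0.66). Ndufa4l2, counted as a factor and not among the 15, was also lower in both, at -0.37 (SE 0.56) and -0.01 (SE 0.55).

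Nuclear genes also divided by transcript length. The 60 nuclear genes with transcripts under 1000 bases had median log2 differences of 0.36 (PreIR-GFP from NonIR), 0.20 (PreIR-NTN from PreIR-GFP) and 0.54 (PreIR-NTN from NonIR). In the 33 with longer transcripts the same medians were -0.09, 0.02 and -0.10. For PreIR-GFP from NonIR, 46 of the 60 short genes were higher, but 10 of 60 without PreIR-GFP 3, and 10 of the 33 long genes were higher, but 21 of 33 without the 4 libraries low in short transcripts. For PreIR-NTN from PreIR-GFP, 51 of 60 short genes were higher, but 16 of 60 without PreIR-NTN 5. For PreIR-NTN from NonIR, between 40 and 58 of the 60 were higher in all 19 alternatives. The complexes differ in this respect: the median transcript was 1612 bases in complex II and 571 bases in complex IV.

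**Figure D2:**
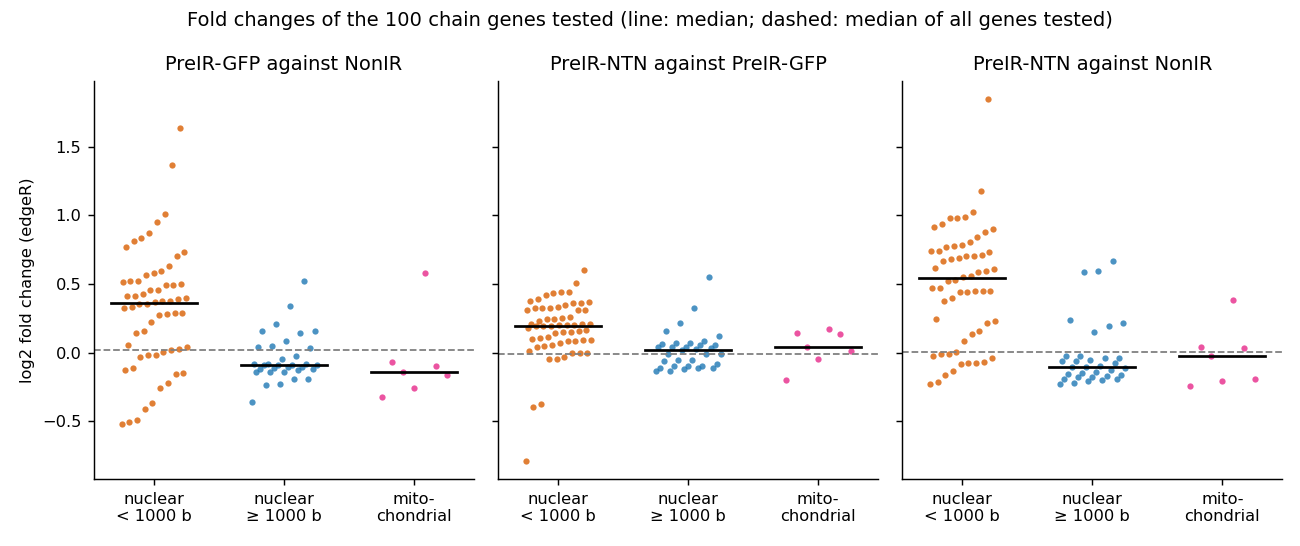
Log2 fold changes of the 93 nuclear and 7 mitochondrial chain genes tested, in the 3 comparisons, with nuclear genes split at a transcript length of 1000 bases. Each point is a gene, black lines are medians and dashed lines are the medians of all genes tested, and no point passes the test. Short nuclear genes centre at 0.36, 0.20 and 0.54, long ones at -0.09, 0.02 and -0.10.

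The spread between libraries of the same group was far wider for nuclear than for mitochondrial chain genes. It was measured as the SD of log2 CPM within groups, in log2 units. Its median was 0.951 in the 93 nuclear genes, 0.299 in the 7 mitochondrial genes and 0.320 in all 14727 genes tested. An SD over 1 was found in 45 nuclear and 0 mitochondrial genes. The narrowest mitochondrial gene was mt-Co1 at 0.177 and the widest mt-Nd6 at 0.404.

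Length again divided the nuclear genes. The 60 genes with short transcripts had a median SD of 1.14, with 42 of them over 1, and the 33 with longer transcripts had a median of 0.225, with 3 over 1. By complex the medians were 1.08 in I, 0.197 in II, 1.01 in III, 1.03 in IV and 0.936 in V, and 0.271 in the factors. Across the 93 nuclear genes, Spearman's rho between transcript length and SD was -0.751, and -0.736 when the shortest annotated transcript was used. Over 12551 other protein-coding genes it was -0.108. These are correlations across genes of the same 13 libraries, and genes are not independent replicates.

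Ndufa1, a small membrane subunit of complex I encoded on chromosome X (37187588 to 37191163, GRCm38, transcript of 419 bases), had the largest SD, 1.63. It stood at 21.97, 33.8 and 53.4 CPM in NonIR, at 7.32, 33.8, 199, 78.5 and 13.02 CPM in PreIR-GFP, and at 130, 11.5, 24.8, 46.9 and 198 CPM in PreIR-NTN. PreIR-GFP 3 and PreIR-GFP 1 differed 27.2-fold in a gene with at least 101 reads in each library. Its group means, 36.4 ± 15.9, 66.4 ± 79.5 and 82.2 ± 79.3 CPM, differed by less than the SD of the irradiated groups.

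Atp5f1, subunit b of the ATP synthase stator (chromosome 3, 105942698 to 105960099, GRCm38, transcript of 1604 bases), had the smallest, 0.112. It stood at 378, 364 and 337 CPM in NonIR, at 306, 333, 350, 333 and 305 CPM in PreIR-GFP, and at 290, 286, 361, 327 and 295 CPM in PreIR-NTN. Highest and lowest library differed 1.32-fold. Atp5c1 (SD 0.119) and Sdhd (0.122) were similarly narrow, while Ndufa5 (1.47) and Ndufa2 (1.42), both accessory subunits of complex I, were next widest after Ndufa1.

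Cox5a (chromosome 9, 57521274 to 57532426, GRCm38, transcript of 645 bases), belonged to the wide group with an SD of 1.02. Its values were 13.7, 33.5 and 39.0 CPM in NonIR, 5.66, 18.8, 34.6, 33.5 and 8.50 CPM in PreIR-GFP, and 41.2, 7.98, 17.4, 32.3 and 32.0 CPM in PreIR-NTN. The low values fell in the 4 libraries named above, NonIR 1, PreIR-GFP 1, PreIR-GFP 5 and PreIR-NTN 2. With group means of 28.7 ± 13.3, 20.2 ± 13.6 and 26.1 ± 13.3 CPM, a difference between groups of the observed size lay inside the spread.

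**Figure D3:**
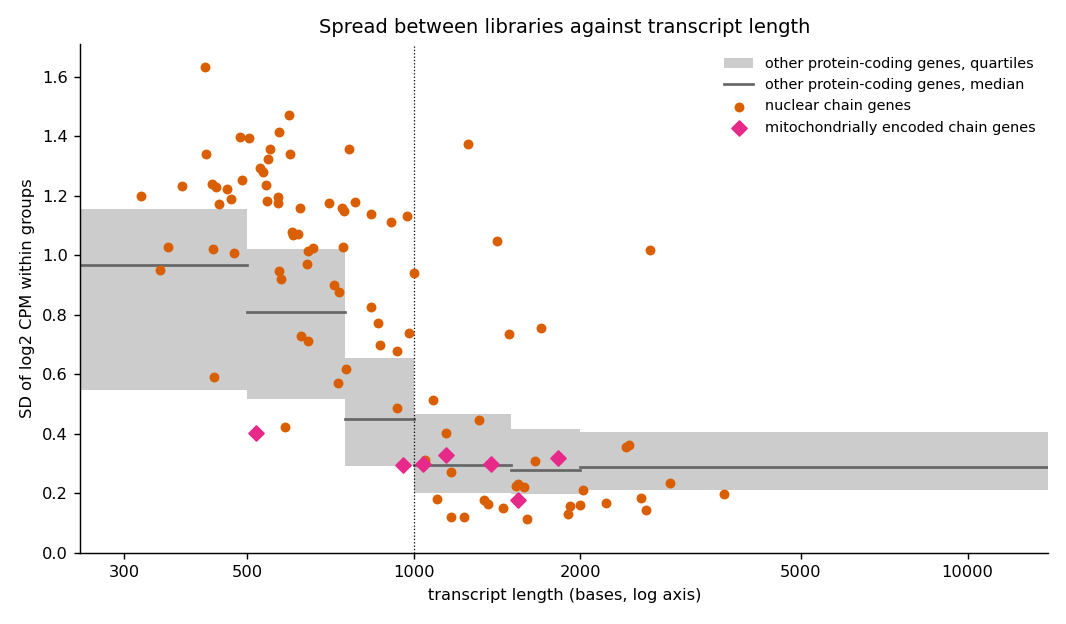
SD of log2 CPM within groups (vertical axis) against transcript length in bases (log axis). Circles are nuclear chain genes, diamonds mitochondrial ones, and grey bands and lines are the quartiles and medians of other protein-coding genes in 6 ranges of length. Nuclear chain genes under 1000 bases sit mostly between 0.6 and 1.6, and the mitochondrial genes between 0.177 and 0.404 at any length.

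Other protein-coding genes also spread more when short, but less steeply. Under 500 bases the median SD was 1.22 in 17 nuclear chain genes and 0.968 in 70 other genes. From 500 to 750 bases it was 1.15 in 31 and 0.810 in 325, and from 750 to 1000 bases 0.800 in 12 and 0.449 in 554. From 1500 to 2000 bases it was 0.221 in 9 and 0.279 in 1713. Restricted to genes between the quartiles of the chain genes' levels, short chain genes had a median SD of 1.18 (35 genes) and other short genes 0.462 (279 genes), and long ones had 0.267 (12 genes) and 0.212 (3047 genes). A wide spread was not particular to the chain: 64 short genes of cytosolic ribosomal proteins, at any level, had a median SD of 0.922.

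Both mitochondrial genes under 1000 bases lay below the short nuclear genes. mt-Nd6, of 519 bases, had an SD of 0.404, and mt-Nd1, of 957 bases, 0.296. Exceptions occurred on either side among nuclear genes. Ndufa13 (transcript of 1251 bases, SD 1.38), Ndufb8 (1411 bases, 1.05) and Atp5g1 (2675.5 bases, 1.02) were wide although long by this measure, and the shortest annotated transcripts of Ndufb8 and Atp5g1 are 680 and 596 bases. Atp5g2 (586 bases, SD 0.422), Atp5d (931 bases, 0.488), Cox4i2 (730 bases, 0.570) and Cox6b2 (435 bases, 0.591) were narrow although short.

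The short nuclear genes deviated together, library by library. The deviation of a gene in a library is its log2 CPM minus its mean over the 13 libraries. For the 60 short nuclear genes the median deviation was -0.88, 0.08 and 0.47 in NonIR 1 to 3. It was -1.61, -0.04, 1.45, 0.75 and -1.19 in PreIR-GFP 1 to 5, and 1.12, -1.21, -0.40, 0.37 and 1.30 in PreIR-NTN 1 to 5. High and low libraries thus occurred in each group, and the whole range, 3.06, was wider than any difference between group medians. In NonIR 1, PreIR-GFP 5 and PreIR-NTN 2, 0 of the 60 genes exceeded their own median level, and in PreIR-GFP 4 and PreIR-NTN 1, 59 of 60 did.

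Longer nuclear genes and mitochondrial genes kept close to their means. The range of the median deviation was 0.500 in the 33 long nuclear genes and 0.794 in the 7 mitochondrial genes, and PreIR-GFP 3 was the highest library in both. Short genes outside the chain were low in the same 4 libraries, to different degrees. In 64 short ribosomal protein genes (Rpl and Rps symbols) the median deviation ran from -1.28 in PreIR-GFP 1 to 1.32 in PreIR-GFP 3. In all 949 short protein-coding genes outside the chain, the 64 included, it ran from -0.65 in PreIR-GFP 1 to 0.37 in PreIR-NTN 5. In 11602 longer protein-coding genes the range was 0.114.

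**Figure D4:**
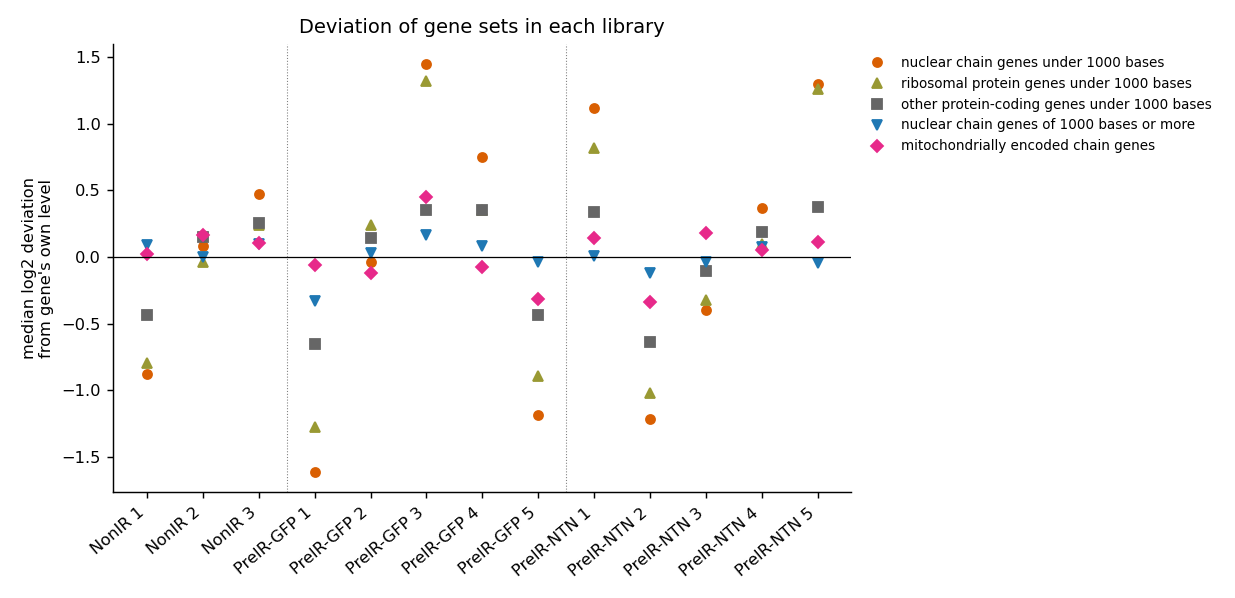
Median log2 deviation of 5 gene sets in each of the 13 libraries, with dotted lines between the 3 groups. Short nuclear chain genes run from -1.61 (PreIR-GFP 1) to 1.45 (PreIR-GFP 3) and ribosomal protein genes follow them, while long nuclear and mitochondrial chain genes stay between -0.34 and 0.45.

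Further library values followed this deviation only in part. The TMM scaling factor was highest in PreIR-GFP 1, at 1.42, and lowest in PreIR-GFP 3, at 0.768. Summed acinar markers were lowest in PreIR-GFP 1 (118300 CPM), PreIR-GFP 5 (167850) and PreIR-NTN 2 (192720), and highest in PreIR-GFP 3 (375750). NonIR 1 and PreIR-GFP 2 held 233800 and 205390 CPM with chain deviations of -0.88 and -0.04, so the 2 orders were not the same throughout. The 4 nuclear-retained RNAs were highest in PreIR-NTN 5 and PreIR-GFP 2, where the deviations were 1.30 and -0.04, and lowest in NonIR 1. The part of cell composition, RNA quality or library preparation in the deviation was not tested. With a lowess trend on transcript length taken out in each library, an analysis added after the data were seen, 0 of the chain genes passed in any comparison. The nuclear medians then were 0.04, 0.12 and 0.17.

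Summed over genes, the long and short nuclear sets behaved as their members did. Short nuclear genes summed to 4054 ± 1670 CPM in NonIR (SD, n = 3), 4617 ± 3200 in PreIR-GFP (SD, n = 5) and 5154 ± 2773 in PreIR-NTN (SD, n = 5), with single libraries from 1340.5 to 8982 CPM. Long nuclear genes summed to 6182 ± 362, 5821 ± 864 and 5752 ± 240 CPM, and mitochondrial genes to 1659 ± 151, 1643 ± 308 and 1682 ± 250 CPM. In each of the 3 sums the group means differed by less than the largest SD. The 98 nuclear genes held between 4.10 times (PreIR-GFP 1) and 8.47 times (PreIR-GFP 4) the CPM of the 7 mitochondrial genes, and this ratio averaged 6.18 ± 1.07, 6.24 ± 1.67 and 6.48 ± 1.39 in NonIR, PreIR-GFP and PreIR-NTN. The 7 mitochondrial genes took 0.136% to 0.205% of all reads in genes, a share that leaves out the 6 genes with almost no reads.

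**Figure D5:**
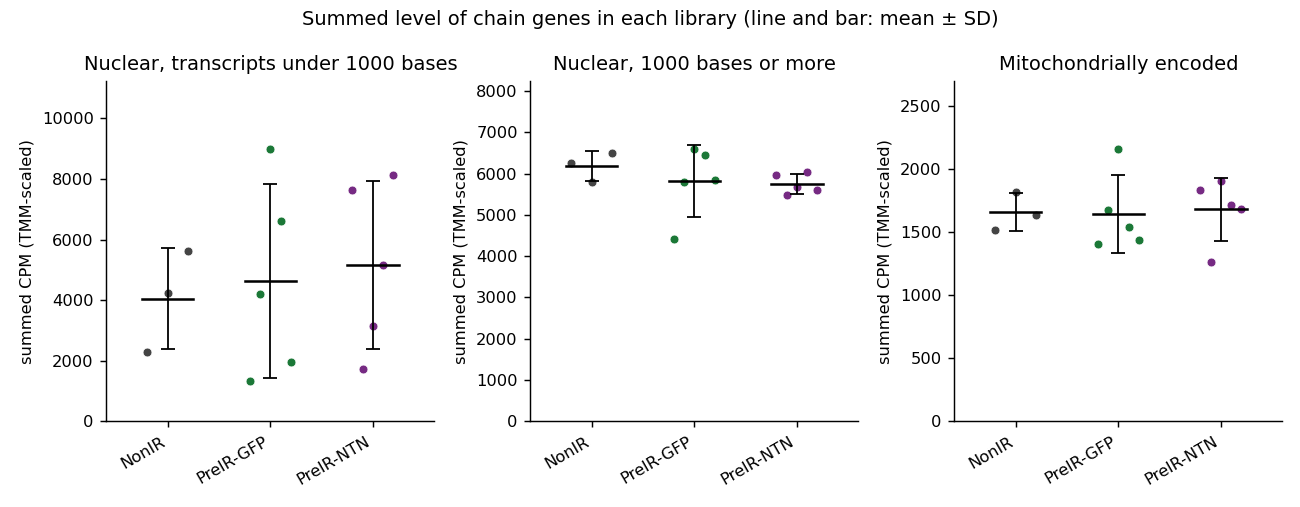
Summed CPM of short nuclear, long nuclear and mitochondrial chain genes in each library, with axes from 0. Points are libraries, and line and bar are the group mean ± SD (n = 3, 5 and 5). The short nuclear sum runs from 1340.5 to 8982 CPM within PreIR-GFP alone, against 4411.5 to 6592 CPM for the long nuclear sum.

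Tissue isoforms of the chain identify which form a tissue uses. In complex IV the ubiquitous forms dominated: per kilobase Cox4i1 stood at 604 and Cox4i2, the lung and hypoxia form, at 0.680 CPM. Cox6a1 stood at 95.7 and Cox6a2, the heart and skeletal muscle form, at 0.0919, Cox7a2 at 282 and Cox7a1, the muscle form, at 23.2, and Cox8a at 187 and Cox8b at 13.4 CPM per kilobase. Among the 3 genes for the same subunit c of complex V, Atp5g3 stood at 245, Atp5g1 at 30.5 and Atp5g2 at 10.5 CPM per kilobase. The value of Atp5g1 rests on a median transcript length of 2675.5 bases, while its shortest annotated transcript has 596 bases. With the shorter length its level would be higher, so the size of its gap to Atp5g3 is uncertain. For Atp5g2, 38.3% of the 50-base runs occur in another gene.

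Cox6a2 had 0 reads in all 3 NonIR libraries, which allows up to 3 reads, and 9 reads in PreIR-GFP 2, with 1 read each in PreIR-GFP 4, PreIR-NTN 1 and PreIR-NTN 5 and 0 elsewhere. PreIR-GFP 2 is the library with 295.9 CPM of skeletal muscle markers. Cox7a1 and Cox8b did not follow it. Cox7a1 stood at 5.81 CPM in PreIR-GFP 2 and at its highest, 33.4, in PreIR-GFP 3, where the muscle markers summed to 4.6 CPM, and Cox8b was likewise highest in PreIR-GFP 3, at 17.3 CPM. Heart muscle markers (Myh6, Tnnt2 and Tnni3) summed to 11.0 to 17.5 CPM over the 13 libraries, and the brown fat marker Ucp1 reached at most 0.132 CPM.

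Other genes of mitochondrial function, from lists of known pathway genes, gave 0 calls in any comparison. All 15 citric acid cycle and pyruvate dehydrogenase genes were lower than NonIR in both irradiated groups, with medians of -0.18 and -0.17 beside 0.02 and 0.00 for all genes, and none passed an unadjusted p under 0.05. The direction was not the same throughout: in PreIR-GFP 6 of the 15 were higher without the 4 libraries low in short transcripts and 3 with library totals, and in PreIR-NTN up to 3 were higher, without NonIR 1. Citrate synthase, Cs, averaged 239 ± 44.5 CPM in NonIR, 205 ± 27.0 in PreIR-GFP and 199 ± 23.6 in PreIR-NTN, differences inside the spread. Of 12 genes of mitochondrial mass, 11 were lower than NonIR in PreIR-GFP and 10 in PreIR-NTN, and at least 8 were lower in each of the 19 alternatives. In each of these comparisons 3 of the 12 passed an unadjusted p under 0.05 (edgeR), against 8.78% of all genes for PreIR-GFP and 7.97% for PreIR-NTN. They were Slc25a5 and Immt in both, with Phb2 in PreIR-GFP and Slc25a3 in PreIR-NTN, and none passed after adjustment. Slc25a5, an ADP/ATP carrier that feeds complex V, averaged 1041 ± 136, 847 ± 65.2 and 802 ± 83.2 CPM (adjusted p = 0.515 and 0.486 against NonIR, edgeR). Immt, an organiser of the cristae, went the other way, at 349 ± 24.9, 428 ± 16.6 and 415 ± 44.7 CPM (adjusted p = 0.480 and 0.623 against NonIR, edgeR).

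Regulators of chain genes were mixed. Of 16 biogenesis and mitochondrial DNA regulators tested, 9 were higher in PreIR-GFP and 8 in PreIR-NTN than in NonIR, with medians of 0.01 and 0.02, and 12 and 9 with library totals. Ppargc1a, the coactivator known for driving mitochondrial biogenesis, differed by 0.17 and 0.04, and Tfam, which packages mitochondrial DNA, by -0.29 and -0.14. Yy1, a transcription factor with a known role at chain gene promoters, averaged 16.2 ± 2.34 CPM in NonIR, 28.5 ± 8.17 in PreIR-GFP and 23.4 ± 4.49 in PreIR-NTN (adjusted p = 0.327 and 0.619 against NonIR, edgeR). The 14 genes of mitochondrial RNA processing had medians of -0.01 and -0.10. Of 38 further chain components and assembly factors tested, 15 were higher than NonIR in each irradiated group, and 20 and 15 with library totals. Among those, too, short genes were wide and long ones narrow: Usmg5, a small ATP synthase component of 362 bases, had an SD of 1.21 and Cyc1, the cytochrome c1 of complex III with 1520 bases, 0.239.

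Promoters of the nuclear members, short and long, were searched for the letters of 3 factors known for chain genes, over both strands of the 250 bases before each gene's start in RefSeq's table for GRCm38.p6. Of 91 nuclear members that are not pseudogenes, 73 had an entry. The palindromic NRF1 consensus, whose letters are the capitals printed in the windows of the paragraph that follows, occurred in 5 of 73 (6.85%), against 0.877% of all 27025 genes in the table. The ETS letters CCGGAAG, read by GABP, occurred in 14 (19.2%), against 7.83%. The YY1 letters AAGATGGC occurred in 1 (1.37%), against 1.83%. Bases after the gene start were not searched, so letters lying there are not counted for any of the 3 factors. A low count, as for YY1, therefore does not show that a gene lacks the letters near its start. By length, the NRF1 consensus occurred in 8.33% of 48 members under 1000 bases and in 4% of 25 longer ones, and ETS letters in 22.9% and 12%. A match describes letters and is not evidence of binding, and no test was made.

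The 5 matches to the NRF1 consensus are shown with their surroundings, 5′ to 3′ toward the gene, with the match in capitals.
Ndufa11: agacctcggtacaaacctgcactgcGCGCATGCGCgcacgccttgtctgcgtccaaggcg
Ndufaf4: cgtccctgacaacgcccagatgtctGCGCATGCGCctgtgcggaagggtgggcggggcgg
Cox6a1: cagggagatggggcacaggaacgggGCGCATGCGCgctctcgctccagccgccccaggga
Atp5k: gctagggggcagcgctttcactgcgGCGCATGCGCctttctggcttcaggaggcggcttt
Atp5g2: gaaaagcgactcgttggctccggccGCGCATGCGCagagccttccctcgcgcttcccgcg

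On GRCm38 these windows lie at chr17:56717677-56717736 (Ndufa11, plus strand), chr4:24897945-24898004 (Ndufaf4, plus), chr5:115349086-115349145 (Cox6a1, minus), chr5:108434415-108434474 (Atp5k, minus) and chr15:102671055-102671114 (Atp5g2, minus). Their capitals begin 60, 113, 162, 50 and 42 bases before the gene start. The 5 genes did not behave alike: Ndufa11, an accessory subunit of complex I, had an SD of 1.33, Atp5k, subunit e of ATP synthase, 1.20 and Cox6a1 0.949, while Ndufaf4, an assembly factor with a transcript of 3632 bases, had 0.199 and Atp5g2 0.422.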

How the data were processed

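The files are a table of raw counts per gene and a table of normalised values for 13 libraries. Per the labels' protocols, full-length cDNA was made with SMART-Seq v4 and sequenced on a NextSeq 500. The series description instead names the Illumina GAIIx, BWA, TopHat and triplicates; the sample labels were followed. STAR 2.5.2a and GRCm38.p3 are named in the submitters' processing notes, as are edgeR, limma and DESeq2 without versions. The counting tool and its handling of strand and of multiple matches were not given in the sources used here. Deposited counts are whole reads per gene. The deposited normalised signal equals the counts times 1 constant per library, and it lists 17957 entries.

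Counts were tested with edgeR 4.0.16 (R 4.3.3), quasi-likelihood with robust dispersion, TMM scaling and filterByExpr, in 1 fit of all 13 libraries with group as the term; p-values were Benjamini-Hochberg adjusted over 14727 genes. Log2 CPM used a prior count of 2. Rows for spike-ins and transgenes (24, at most 5.85e-05% of reads) were left out. Transcript length is the median over GENCODE M21 protein-coding transcripts. Limma 3.58.1, DESeq2 1.42.0, other scalings and filters, a replicate block and each library left out were alternatives; the length trend and the 4 libraries left out together were added after seeing the data. Named genes are Cox5a, all mitochondrial genes, the 3 lowest p in each direction per comparison, the extremes of level and spread, and tissue isoforms; others named beside them were chosen after their values were seen. The code was tested on simulated data. Members and lists were chosen with earlier results of these data known.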

Additional observations from a re-analysis of the deposited data

Results flagged for a closer look

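Of 90 sets of values tested (a named chain gene, or the nuclear or mitochondrial sum, in PreIR-GFP or PreIR-NTN), 3 had 1 library far from the other 4, and chance alone gives about 1 in 20. Cox6a2, the muscle form of subunit 6a, stood at 0.5939 CPM in PreIR-GFP 2, the library with 295.9 CPM of skeletal muscle markers. Cox8b stood at 17.28 CPM in PreIR-GFP 3, where short nuclear chain genes were also at their highest. mt-Cytb stood at 262.0 CPM in PreIR-NTN 2, against 379 to 421 CPM in the other 4 PreIR-NTN libraries. The part of those library differences in the 3 values was not tested.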

How the results depend on the processing

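The number of calls over all genes depended on the method. For PreIR-GFP against NonIR, 5 genes were called by edgeR. DESeq2 called 73, of which 1 was a chain gene (mt-Co1), no filter on low counts 20 and limma on the deposited values 9. Library totals called 0 (754 at an unadjusted p under 0.05), limma-voom 0 (1126), the 2 groups fitted alone 0 (1007) and the replicate block 0 (1084). Leaving out 1 library gave 0 to 17, with 17 without PreIR-GFP 1, and 0 without NonIR 2 (1045 unadjusted), NonIR 3 (1092), PreIR-GFP 3 (1206) or PreIR-GFP 5 (1176). For PreIR-NTN against PreIR-GFP, with 3 calls, DESeq2 gave 38 and no filter 10. Library totals gave 0 (573), the groups alone 0 (815), the replicate block 0 (691) and the 4 libraries left out together 0 (1051). Leaving out 1 library gave 0 to 11, the most without PreIR-GFP 4. For PreIR-NTN against NonIR, with 3 calls, DESeq2 gave 31, library totals 0 (479), limma-voom 1, the replicate block 0 (879) and the 4 libraries left out together 1. Leaving out 1 library gave 0 to 2. The cause was not tested. Library totals moved the median of all genes to 0.12 from 0.02 (PreIR-GFP from NonIR) and to -0.10 from -0.01 (PreIR-NTN from PreIR-GFP).

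Deviations of same-numbered libraries had correlations of -0.428 to 0.279. Differently numbered libraries were not compared in this way, so these values cannot tell whether equal numbers share a batch or an animal. The replicate numbers were not treated as pairs in the main fit. Under the replicate block the nuclear median for PreIR-GFP from NonIR was -0.02. The nuclear spread stayed between 0.721 and 0.951 and the mitochondrial between 0.244 and 0.310 over 3 other scalings. With 3 NonIR libraries and an SD near 1 in short nuclear genes, differences of the size seen there lay within the spread.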
